A study of Mus musculus with 8 samples.

Results

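The gene of the neuropeptide galanin, *Gal*, and the genes of its 3 receptors, *Galr1*, *Galr2* and *Galr3*, were examined in sorted mouse pituitary gonadotropes. The 4 genes were selected by symbol among the 55523 entries of a count table, with their levels in these samples, and the difference between the sexes, already known. Their values between the sexes are therefore given as a description, without a test. Gonadotropes were collected by fluorescence-activated cell sorting as EGFP-expressing pituitary cells. All samples came from Ad4BP-BAC-EGFP mice, in which EGFP marks cells that express NR5A1. There were 4 samples from females and 4 from males. No treatment is named for them, and the age of the mice is not given in the sources used here. The labels do not say whether samples of a sex came from separate animals, so p-values measure only the spread between these samples, which may be technical.

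Galanin is cut from a precursor and stored in secretory granules, and its receptors are G protein-coupled receptors of the cell surface. GALR1 and GALR3 act mainly through inhibitory G proteins, which lower cyclic AMP and open potassium channels, whereas GALR2 acts mainly through Gq and phospholipase C. In the rodent anterior pituitary, galanin is best known as a peptide of lactotropes whose gene is induced by estrogen.

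Each sample held 18774578 to 31302588 counts. Levels are given in CPM, a count per 1000000 counts of its library after scaling with TMM factors, on which 3 counts, taken as the floor, correspond to 0.0921 to 0.146 CPM. The floor accounts for counting error alone, since PCR copies of a molecule can be read more than once. Male replicate 1, which the study excluded, stood apart, with *Nr5a1* at 16.3 CPM (584 to 801 CPM for male replicates 2 to 4) and the nuclear RNA *Malat1* at 110079 CPM (7790 to 9998 CPM). It is shown separately, so that the sexes are represented by female replicates 1 to 4 and male replicates 2 to 4. Counts can swing between samples of a sex, since 960 of the 13211 entries with a mean of at least 100 counts in females (7.27%) varied more than 10-fold among the 4 females. The listed gonadotrope markers *Lhb*, *Fshb*, *Cga*, *Gnrhr* and *Nr5a1* were all detected. Their sum was 21488 to 34863 CPM in females, 67930 to 75717 CPM in male replicates 2 to 4, and lower, at 28423 CPM, in male replicate 1. Most of the sum was *Cga* and *Fshb* in each sample. Taken singly, *Lhb*, *Cga* and *Gnrhr* overlapped between females and male replicates 2 to 4. Of these 5 genes *Fshb* was called higher in males (log2 fold change 3.13, adjusted p = 0.0449 in edgeR), as were 0.983% of all genes. Among the single samples left out, its call held only without female replicate 4 (adjusted p from 0.0325 to 0.135 in edgeR), and it was lost with all 8 samples (0.143), with a replicate block (0.263) and with no filter beyond 1 count. *Nr5a1*, the gene that EGFP follows, was in the opposite direction, at 862 to 1266 CPM in females, above each male (log2 fold change -0.61, adjusted p = 0.130 in edgeR).

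*Gal* (ENSMUSG00000024907.7) lies on the minus strand of chromosome 19 in mm10 (GRCm38), at chr19:3409915-3414544, and its annotated transcripts have up to 6 exons with 788 bp of exon sequence in all. In the count table it has a locus of its own. The 250 bases in front of its annotated start, at chr19:3414545-3414794 on the minus strand, are shown because *Gal* was measured beside genes that respond to estrogen, and the capitals mark the core GGTCA that estrogen receptors, NR5A1 and other nuclear receptors recognize. The sequence is from RefSeq (GRCm38.p6), in which 2 of the 4 genes had a promoter entry.
Gal promoter: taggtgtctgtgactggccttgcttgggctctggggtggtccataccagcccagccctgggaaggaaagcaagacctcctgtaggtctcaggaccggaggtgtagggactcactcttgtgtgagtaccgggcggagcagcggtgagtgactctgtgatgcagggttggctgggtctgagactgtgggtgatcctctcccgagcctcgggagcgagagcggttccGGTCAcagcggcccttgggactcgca
The core was found at positions -26 to -22 from the start, on the strand of the gene, and was the only match of GGTCA in either orientation. It is a short motif that 35.2% of the 32851 promoters of the same length hold. The full estrogen response element GGTCANNNTGACC, the NR5A1 site CAAGGTCA, the AP-1 site TGANTCA and the cAMP response element TGACGTCA had no match on either strand of this window, and they were found in 0.0639%, 1.33%, 6.75% and 1.55% of promoters. GGTCA is contained in the estrogen response element and in the NR5A1 site. The promoter entry of *Galr2* also held a GGTCA, at positions -238 to -234. A match describes the letters only, and no binding was measured.

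*Gal* was abundant in females and lower in males. It had 2754, 2302, 1583 and 1909 counts in female replicates 1 to 4, which correspond to 118, 112, 48.6 and 82.5 CPM. In male replicates 2, 3 and 4 it had 686, 274 and 765 counts, or 27.0, 10.3 and 34.7 CPM. Each female sample was thus above each male sample, and the lowest female, replicate 3, was 1.40 times the highest male, replicate 4. Male replicate 1, with 482 counts or 21.0 CPM, lay inside the range of the other males. The female mean was 90.3 ± 31.8 CPM (SD, n = 4), which is 3.76 times the male mean of 24.0 ± 12.5 CPM (SD, n = 3). On the log2 scale, the fold change of males over females fitted by edgeR was -1.94. Without any single sample, the fold change lay between -2.31 and -1.57. In these bulk samples, fewer cells that express a gene and less RNA per cell cannot be told apart.

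The samples of a sex also differed among themselves. The highest female was 2.42 times the lowest, and the highest male was 3.36 times the lowest. Per exon length, *Gal* was at 149, 143, 61.6 and 105 CPM per kb in female replicates 1 to 4, between the 96.9 and 98.9 percentile of the entries with a count in each sample. In male replicates 2, 3 and 4 it was at 34.3, 13.1 and 44.1 CPM per kb, which is the 93.6, 85.1 and 95.3 percentile. The gene was therefore among the more highly expressed in both sexes, with male replicate 3 lowest.

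*Galr1* (ENSMUSG00000024553.8), the gene of a receptor that couples to inhibitory G proteins, lies on the minus strand of chromosome 18 at chr18:82392380-82406777 and has 3 exons with 2987 bp. It had 236, 58, 265 and 86 counts in female replicates 1 to 4, or 10.1, 2.83, 8.13 and 3.72 CPM, and 0 counts in each of the 4 males, male replicate 1 included. All females were above their floors, and the highest female was 3.57 times the lowest. The mean in females was 6.19 ± 3.48 CPM (SD, n = 4), which is at least 50.6-fold higher than in males when the males are set at the floor of 3 counts per library, averaged over replicates 2 to 4. The lowest female was 23.1 times that floor. Replicates 1 and 3 were high and replicates 2 and 4 low, an order that differs from that of *Gal*, for which replicates 1 and 2 were highest. Per exon length, *Galr1* amounted to 2.26%, 0.665%, 4.42% and 1.19% of *Gal* in female replicates 1 to 4.

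*Galr2* (ENSMUSG00000020793.5), whose receptor couples to Gq, lies on the plus strand at chr11:116280939-116283938 and has 2 exons. It had 33, 20, 11 and 0 counts in female replicates 1 to 4, or 1.41, 0.976, 0.338 and 0 CPM. In male replicate 3 it had 6 counts, or 0.227 CPM, and in the other 3 males 0 counts. The sexes overlapped, because female replicate 4 was at 0, as were most males. The gene did not pass the filter on low counts and was not fitted, and its female mean was 0.681 ± 0.633 CPM (SD, n = 4) beside a male mean of 0.0755 ± 0.131 CPM (SD, n = 3).

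*Galr3* (ENSMUSG00000114755.1) lies on the plus strand at chr15:79041885-79043558 and was close to the limit of detection. It had 5, 4, 6 and 0 counts in female replicates 1 to 4, or 0.214, 0.195, 0.184 and 0 CPM, and 0 counts in each of the 4 males. With floors of up to 0.136 CPM in the males, a difference between the sexes was not detectable at this depth. The count table places it in a common locus with *Gcat*, an upstream neighbor on the same strand of which an annotated form, at chr15:79030901-79042531, runs into *Galr3*. *Gcat* had 318 to 629 counts per sample, so the counts of *Galr3* are uncertain where these genes overlap.

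Between the receptors, the order per exon length in females was *Galr1* at 2.07 CPM per kb, *Galr2* at 0.277 CPM per kb and *Galr3* at 0.119 CPM per kb, against 115 CPM per kb for *Gal*. In female replicates 1, 2 and 3 *Galr2* was between 0.137 and 0.575 CPM per kb and *Galr3* between 0.148 and 0.172 CPM per kb, so these ranges overlapped. The lowest *Galr1* value, 0.947 CPM per kb in replicate 2, was above each *Galr2* value. In male replicates 2 to 4, *Gal* was at 30.5 CPM per kb and the only receptor with any count was *Galr2*.

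**Figure D1:**
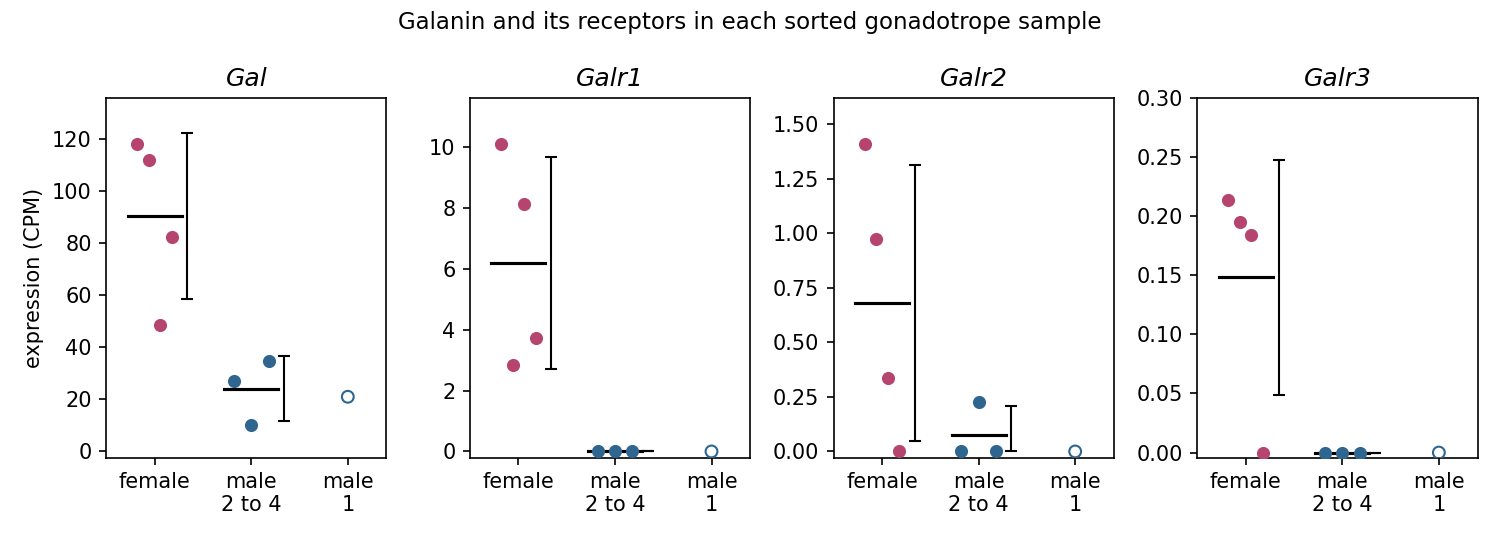
Expression in CPM (linear axes, a separate scale per gene) of galanin and its receptors, with filled points for female replicates 1 to 4 and male replicates 2 to 4, an open point for male replicate 1, a line at the mean and bars of 1 SD, cut off at 0. The 4 females sit between 48.6 and 118 CPM for *Gal*, all above the males, and *Galr1* is at 0 in each male.

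For *Gal* and *Galr1* every female was above every male. Among the 20152 genes tested, 22.3% separated the samples of both sexes in this way, and 10.8% did so with the females higher. The share of all genes that passed an adjusted p of 0.05 in edgeR's quasi-likelihood test was 2.34%, of which 1.35% were higher in females and 0.983% higher in males. These shares give the background, and since the 4 genes were chosen with this comparison known, nothing is read from their own counts.

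*Gal* was next set among a list of 54 neuropeptide precursor genes, which leaves out the precursors of anterior pituitary hormones but holds *Oxt* and *Avp*. *Pomc*, for example, the precursor of ACTH and endorphin, is not on it and was far higher, at 12418 to 22026 CPM in females. Within the list, compared per exon length, *Gal* ranked first in each of the 4 females, at a mean of 115 ± 40.4 CPM per kb (SD, n = 4). The next genes by female mean were *Penk*, the enkephalin precursor, at 23.2 ± 5.86 CPM per kb and *Cck*, the cholecystokinin precursor, at 12.7 to 33.7 CPM per kb. The lowest female value of *Gal*, 61.6 CPM per kb, exceeded the highest female values of *Penk* (29.0) and *Cck* (33.7), whereas the ranges of *Penk* and *Cck* overlapped. The female value of *Edn2*, an endothelin precursor, reached 38.7 CPM per kb in replicate 1 but varied, with a female mean of 13.9 ± 16.7 CPM per kb. In males *Gal* ranked first in replicates 2 and 4 and at place 3 in replicate 3, after *Nmb*, the neuromedin B precursor, and *Penk*. Its male mean was 30.5 ± 15.8 CPM per kb (SD, n = 3) and that of *Penk* was 21.1 ± 18.9 CPM per kb, so they did not differ beyond their spread. *Penk* was highest in male replicate 4, at 42.6 CPM per kb, and its mean without that sample was 10.3 CPM per kb. In male replicate 1, *Nmb* was first at 27.1 CPM per kb and *Gal* second at 26.7 CPM per kb.

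**Figure D2:**
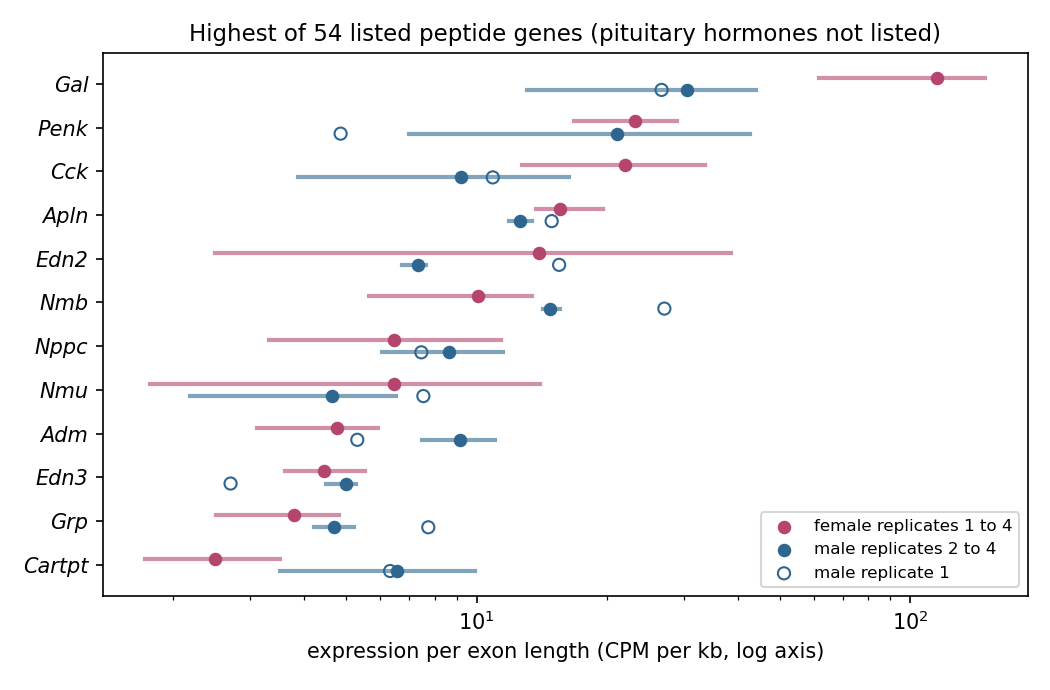
Expression per exon length (CPM per kb, log axis) of the 12 genes with the highest female means among the 54 listed precursors, which do not include anterior pituitary hormones such as *Pomc*, with points at the mean, lines from the lowest to the highest sample and open points for male replicate 1. In females *Gal* lies between 61.6 and 149 CPM per kb, above the other genes plotted.

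The list without *Gal*, *Galp* and *Spx*, 51 genes, was also compared between the sexes. Of the 23 that were tested, 0 passed an adjusted p of 0.05 in edgeR's quasi-likelihood test, with 6 higher in males and 2 higher in females at an unadjusted p under 0.05, where 19.9% of all genes tested lay under it, 9.31% higher in males and 10.6% higher in females. With DESeq2 4 of the list passed, beside 9.71% of all genes with an adjusted p. *Vip*, the precursor of vasoactive intestinal peptide, was 3.15 ± 1.21 CPM (SD, n = 4) for females against 1.03 ± 0.329 CPM (SD, n = 3) for males (log2 fold change of males over females -1.63, standard error 0.46, adjusted p = 0.113 in edgeR). *Calca*, the calcitonin gene, went the other way, with 0.825 ± 0.540 CPM for females and 4.08 ± 2.21 CPM for males (log2 fold change 2.28, standard error 0.61, adjusted p = 0.0991 in edgeR). *Apln*, the apelin precursor and the highest of them in CPM, was 49.1 ± 8.65 CPM in females and 39.5 ± 2.48 CPM in males (adjusted p = 0.330 in edgeR). The median log2 fold change over the 23 genes was -0.16, beside -0.03 over all genes tested.

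Peptides and receptors related to galanin were scarce. Spexin, encoded by *Spx*, is a ligand of GALR2 and GALR3, and its level was 0.798 to 3.37 CPM in females and 1.10 to 2.87 CPM in the males without replicate 1. *Gpr151*, which encodes an orphan receptor related in sequence to galanin receptors, was 1.02 ± 0.653 CPM in females and 1.96 ± 0.700 CPM in males. *Kiss1r*, the gene of the related kisspeptin receptor, was 3.32 ± 1.10 CPM in females and 4.67 ± 0.331 CPM in males. The genes *Galp*, of the galanin-like peptide, and *Kiss1* had 0 counts in all 8 samples. None of the 3 genes tested passed the threshold in edgeR (adjusted p = 0.812, 0.436 and 0.478), 0 had an unadjusted p under 0.05 and 0 passed with DESeq2. Their median log2 fold change was 0.46.

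The G proteins and effectors through which galanin receptors act were measured as a list of 30 genes, of which some, such as *Plcb2* and *Kcnj5*, had samples at 0. Of the 30 genes, which were all tested, 1 was higher in males and 1 higher in females at an adjusted p of 0.05 in edgeR, beside 2.34% of all genes in either direction, and the median log2 fold change was -0.29 beside -0.03 over all genes. *Plcb1*, a phospholipase C activated by Gq, was 9.33 to 13.6 CPM in females, below the 24.7, 26.5 and 23.0 CPM of male replicates 2 to 4 (log2 fold change 1.17, standard error 0.18, adjusted p = 0.0346 in edgeR). Male replicate 1 was at 8.78 CPM, below the females. *Adcy8*, an adenylyl cyclase stimulated by calcium, was 3.72, 3.61, 1.75 and 5.19 CPM in female replicates 1 to 4 and between 0.272 and 0.717 CPM in male replicates 2 to 4 (log2 fold change -2.74, standard error 0.53, adjusted p = 0.0494 in edgeR). Without any single sample of the comparison, the call of *Adcy8* was lost (adjusted p from 0.0592 to 0.147 in edgeR), and that of *Plcb1* held only without female replicate 4 (0.0290 to 0.126). With DESeq2 8 genes of the list were called (9.71% of all genes) and with unscaled library sizes 5 (4.01% of all genes), whereas 0 were called with all 8 samples (*Plcb1* adjusted p = 0.373, *Adcy8* 0.0814 in edgeR), with a replicate block or with no filter beyond 1 count. The G protein subunits *Gna11* and *Gnaq* were the highest of the list in CPM, at 376 ± 53.5 and 361 ± 43.8 CPM in females and 474 ± 43.1 and 357 ± 60.6 CPM in males. *Gnai2*, of the inhibitory class, was 206 ± 40.9 CPM in females and 124 ± 9.91 CPM in males (adjusted p = 0.0899 in edgeR), and *Gnai3* was 104 ± 4.80 and 160 ± 16.4 CPM (adjusted p = 0.0582 in edgeR). *Arrb2*, a beta-arrestin that binds activated receptors, was 15.2 ± 9.84 CPM in females and 1.92 ± 0.180 CPM in males (adjusted p = 0.0530 in edgeR).

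Among 13 genes that process or break down peptides, 1 was called, and it was higher in males, as were 0.983% of all genes. With DESeq2 3 were called, beside 9.71% of all genes with an adjusted p. *Scg5*, whose product is a chaperone of the prohormone convertase PCSK2, was 1425 to 1517 CPM in females, below the 2672, 2678 and 2263 CPM of male replicates 2 to 4 (log2 fold change 0.77, standard error 0.11, adjusted p = 0.0275 in edgeR). In male replicate 1 it was 1309 CPM. The call was lost without female replicate 2, 3 or 4 or male replicate 2 or 3 (adjusted p up to 0.0976 in edgeR), with library sizes that were not scaled, with all 8 samples (0.410) and with a replicate block (0.227). *Pcsk1*, a prohormone convertase, was 210 ± 111 CPM in females and 880 ± 191 CPM in males (adjusted p = 0.0633 in edgeR). *Pam*, which amidates peptides such as galanin, was 74.1 ± 46.4 CPM in females and 144 ± 26.1 CPM in males (adjusted p = 0.530 in edgeR). The median log2 fold change of the list was 0.12.

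Estrogen receptors and genes that respond to estrogen formed the last list, with 15 genes of which 12 were tested. Of these, 2 were higher in females and 0 higher in males at an adjusted p of 0.05 in edgeR, where 1.35% of all genes were higher in females. *Greb1*, a growth regulator induced by estrogen, was 69.9, 89.5, 75.6 and 78.5 CPM in female replicates 1 to 4 and 16.3, 13.0 and 19.8 CPM in male replicates 2 to 4. Its log2 fold change was -2.29 (standard error 0.21, adjusted p = 0.00875 in edgeR), and it was called whichever sample was left out (adjusted p from 0.0150 to 0.0388). *Pgr*, the progesterone receptor gene, was 123, 61.8, 102 and 64.4 CPM in females and 31.2, 29.4 and 22.3 CPM in male replicates 2 to 4 (log2 fold change -1.70, standard error 0.29, adjusted p = 0.0417 in edgeR). Its call was lost when any sample was left out (adjusted p from 0.0605 to 0.136 in edgeR). Male replicate 1 had 48.6 CPM of *Greb1*, above the other males, and 25.5 CPM of *Pgr*, inside their range. *Greb1* was no longer called with all 8 samples (adjusted p = 0.173 in edgeR) or with a replicate block (0.196), and *Pgr* was not called with the block (0.227) or with no filter beyond 1 count (0.0618).

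The estrogen receptor gene *Esr1* was expressed in both sexes, with 522 ± 92.4 CPM (SD, n = 4) for females against 633 ± 124 CPM (SD, n = 3) for males, a difference that did not pass the test (adjusted p = 0.550 in edgeR). *Nrip1* was 94.8 ± 20.5 CPM in females and 55.6 ± 8.33 CPM in males (adjusted p = 0.0858 in edgeR), and the cyclin gene *Ccnd1* was 200 ± 28.5 and 200 ± 23.9 CPM. *Ctsd* went the other way, at 445 ± 37.5 CPM in females and 570 ± 69.6 CPM in males (adjusted p = 0.238 in edgeR). By fold change, 7 of the 12 genes tested were higher in females and 5 higher in males. *Esr2*, *Tff1* and *Pdzk1* were at or near 0 counts and were not tested. The median log2 fold change of the list was -0.30, beside -0.03 over all genes.

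**Figure D3:**
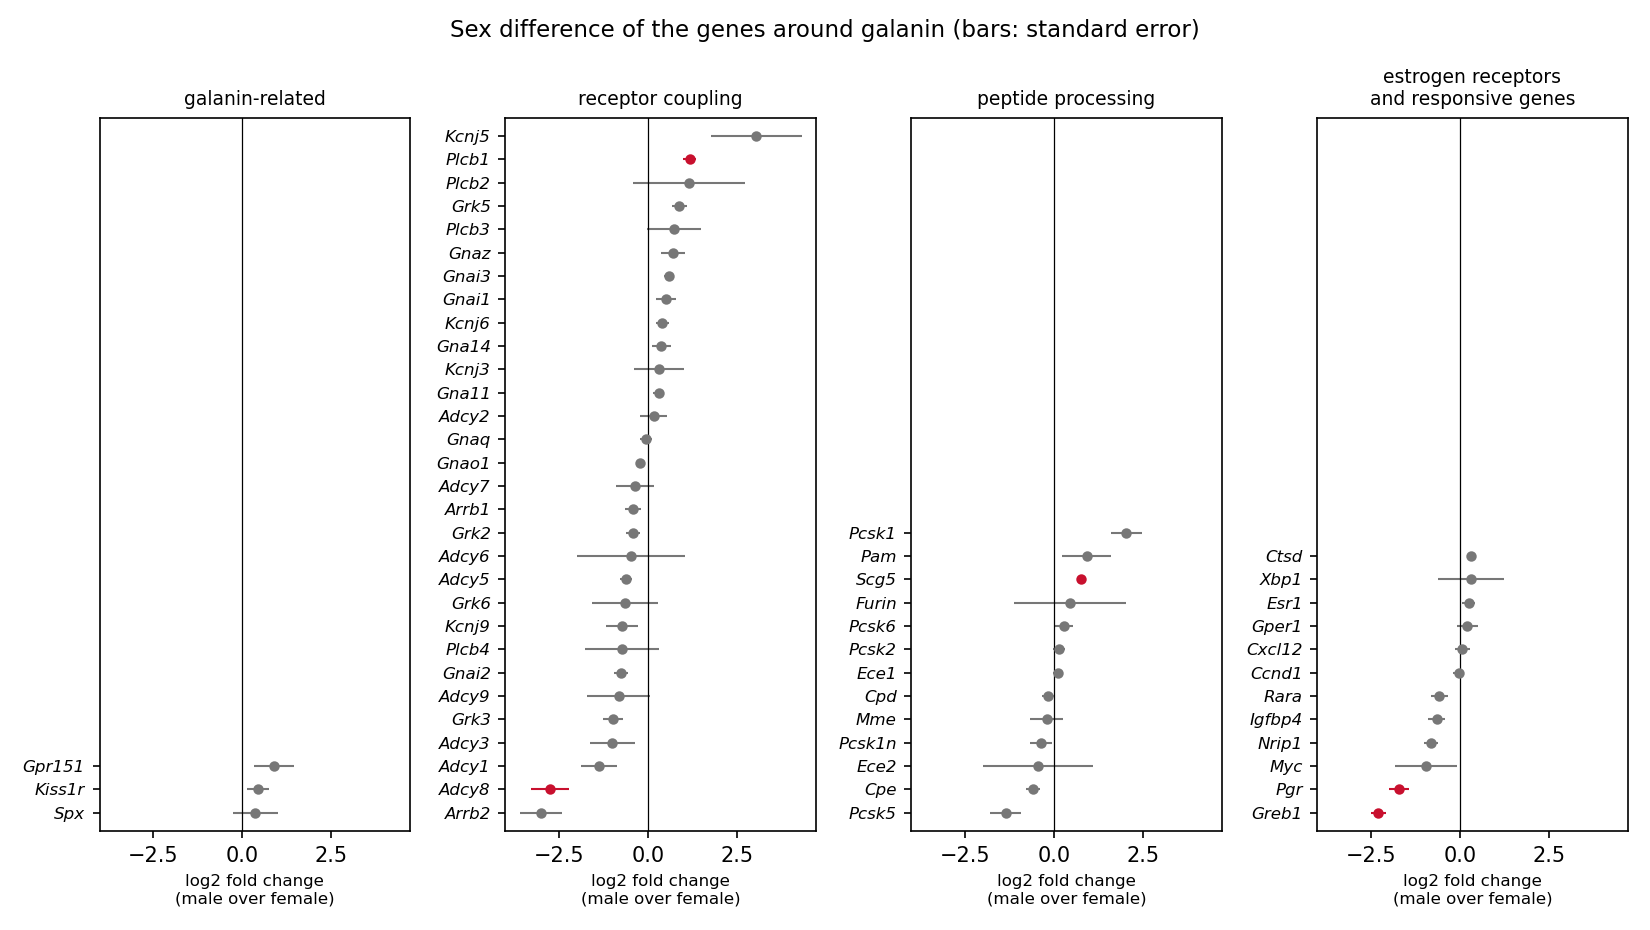
Log2 fold change of males over females for the tested genes of 4 lists, with bars of 1 standard error and red points for an adjusted p under 0.05 in edgeR. *Greb1* and *Pgr* are the red points among the estrogen-responsive genes, *Adcy8* and *Plcb1* among the coupling genes and *Scg5* among the processing genes.

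Because *Gal* is known from lactotropes, markers of other pituitary cells were set beside it. The 3 lactotrope markers summed to 4693 to 18148 CPM in females and 6249 to 15718 CPM in male replicates 2 to 4, so the sexes overlapped, and nearly all of the sum was *Prl*. In male replicate 1 the sum was 1650 CPM, while its *Gal* was inside the male range. *Agtr1b* was at 0 in the females. The sums of somatotrope markers (12397 to 57868 CPM in females, 65340 to 142307 CPM in these males) and of thyrotrope markers (21.4 to 85.2 and 238 to 345 CPM) were lower in each female than in each of these males, opposite to *Gal*. The sum of the 4 stem or folliculostellate cell markers was in the same direction as *Gal*, at 303 to 534 CPM in females and 215 to 271 CPM in male replicates 2 to 4, and 1 of the 4, *Sox9*, was called higher in females (log2 fold change -1.02, adjusted p = 0.0417 in edgeR), as were 1.35% of all genes. The call of *Sox9* was lost without any single sample (adjusted p from 0.0580 to 0.135 in edgeR), with all 8 samples (0.438), with a replicate block (0.227) and with no filter beyond 1 count. In the stem cell sum, male replicate 1 was at 399 CPM, inside the female range. Corticotrope, melanotrope, endothelial, stromal, erythroid and immune sums overlapped between the sexes. The part of other cells in the levels of *Gal* and *Galr1* was not tested.

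**Figure D4:**
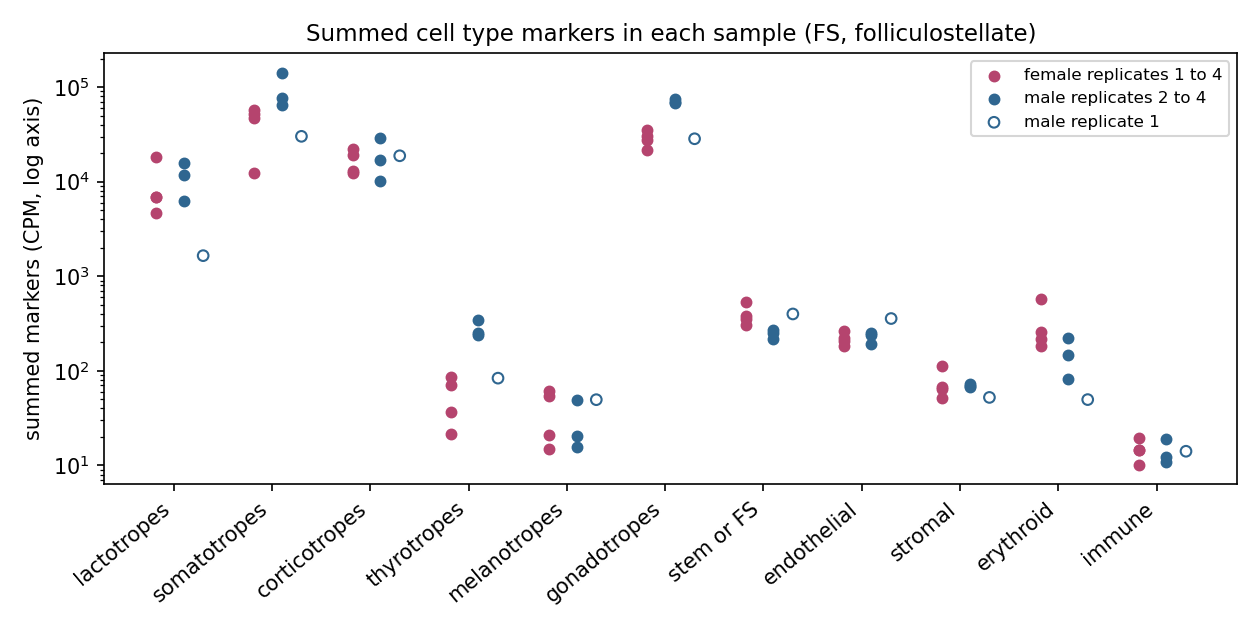
Summed CPM (log axis) of the marker genes of 11 cell types in each sample, with filled points for female replicates 1 to 4 and male replicates 2 to 4 and open points for male replicate 1. The lactotrope sums of the sexes overlap, whereas the gonadotrope sums of male replicates 2 to 4 lie above those of the females. Of the single gonadotrope markers this holds only for *Fshb*, while *Lhb*, *Cga* and *Gnrhr* overlap and *Nr5a1* is lower in these males.

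The genes whose pattern was most like that of *Gal* were sought among 9793 genes with a mean of at least 10 CPM, by Pearson's correlation of log2(CPM + 1) over the 7 samples. These correlations are descriptions, because the samples share the sex difference and many genes reach high values with 7 points. Among the 8 closest were *Limd1*, *Pigo*, *Ina*, *Fbxl20*, *Plxnb2*, *B3gat2* and *Zswim7*, with r from 0.96 to 0.99. Of these, *Ina*, which encodes an intermediate filament protein of neurons, kept the highest r over all 8 samples (0.98). For *Limd1*, r was 0.47 over 8 samples, and male replicate 1, at 78.7 CPM, was above the other 7. The least like were *Rsph3a*, *Gpr75*, *Zfp938* and *Eif4a1*, with r from -0.99 to -0.98. After the mean of each sex was subtracted, the closest were *Arl6ip4*, *Trio*, *Cdc40*, *Limd1* and *Vamp2*, with r from 0.97 to 0.99, so that *Limd1* was on both lists.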

How the data were processed

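RNA was sequenced from EGFP-positive cells sorted from the pituitary, as 4 female and 4 male samples. According to the study's methods, the authors removed adapters with cutadapt, mapped reads to mm10 with STAR and counted them with featureCounts at its default settings, which do not use strand and leave out reads that overlap several genes, and they deposited unnormalized counts per gene. Of the 55523 entries, 28933 carry names of the kind that transcript assembly gives, a step that the study's methods do not describe. The gene models behind them are not given in the sources used here, so how reads over several genes were counted is uncertain. Where a symbol had several entries, the entry with the most reads was used.

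The sexes were compared, without male replicate 1, by edgeR's quasi-likelihood test (version 4.0.16 in R 4.3.3), with TMM factors, filterByExpr and Benjamini-Hochberg adjustment over all 20152 genes tested, at a threshold of 0.05. CPM used TMM factors over all 8 samples. On counts simulated for this comparison over 20152 genes, with 200 genes changed by 3 on the log2 scale, the test recovered 71.7% of the changed genes that were tested, and 6.16% of its calls were unchanged genes. A standard error was obtained as the absolute log2 fold change over the root of F. Exon lengths and coordinates are from GENCODE M21. The members and lists were chosen with earlier results of these data known. Genes named are the 4 members, called and highest genes of each list, genes most and least like *Gal* by the rule given (with no Gm or Rik names), and further list members chosen after their values were seen. The alternatives were DESeq2 (version 1.42.0), unscaled library sizes, DESeq2 size factors in edgeR, a looser filter (1 count) and a stricter filter (10 counts per sample), the inclusion of male replicate 1, a replicate block and leaving out each sample. A gene that the rule on likeness to *Gal* selected is not reported here.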

Additional observations from a re-analysis of the deposited data

Results flagged for a closer look

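A sample far from the others of its sex was sought in 34 groups of 4 samples, and 3 were found. A nominal chance figure lies between 1 and 2, but it does not hold for groups of few counts, such as those of *Galr2* and *Galr3* here. *Galr2* was 0.227 CPM (6 counts) in male replicate 3 and 0 CPM in the other males. *Galr3* was 0 CPM in female replicate 4 and between 0.184 and 0.214 CPM (4 to 6 counts) in the other females. *Prl* was 18125 CPM in female replicate 2 while the other females had 4671 to 6937 CPM, and the *Gal* level of that sample, 112 CPM, was inside the female range.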

How the results depend on the processing

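The log2 fold change of *Gal* (males over females, -1.94) kept its direction and moved by less than the within-sex SD of 0.71 in all alternatives, from -2.31 to -1.57. Unscaled library sizes gave -2.18 and moved the median over all genes from -0.03 to -0.24. The number of genes called (471) was 2235 with DESeq2, 808 with unscaled library sizes, 177 with no filter beyond 1 count, 67 with all 8 samples and 0 with a replicate block (2954 at an unadjusted p under 0.05), and between 88 and 171 when each sample was left out. With unscaled library sizes 133 genes were higher in males and 675 in females, against 198 and 273. Of the list genes, 5 were called, and the number was 18 with DESeq2, 2 with no filter beyond 1 count, 1 with all 8 samples, 0 with a replicate block and between 1 and 2 when each sample was left out. The cause of these changes was not tested. The same-numbered samples of the sexes did not deviate together over all genes tested (correlations of -0.0282, 0.00185 and -0.00237). Male replicate 1 was not part of this check, which could also miss a batch that touches only some genes. Pairing by number is therefore undecided. Of the 8 genes most like *Gal*, 2 remained among the closest 8 with Spearman's rho, 2 with all 8 samples, 5 with unscaled library sizes and between 2 and 4 when each sample was left out. Depth limits *Galr2* and *Galr3*, which had at most 33 and 6 counts per sample.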
